A study of Mus musculus with 9 samples.

Results

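This report describes 10 genes for non-collagen matrix proteins and matrix crosslinking enzymes in rat liver RNA. They were chosen by name among the 37203 gene rows of the deposited count table. All 10 rows were found, and 9 held enough counts to be tested. The genes are the lysyl oxidases Lox, Loxl1 and Loxl2, the small leucine-rich proteoglycans Dcn (decorin), Lum (lumican) and Bgn (biglycan), the adhesive glycoprotein Fn1 (fibronectin), and the matricellular proteins Sparc, Thbs1 (thrombospondin-1) and Postn (periostin).

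Scar matrix in the liver is built from collagen fibrils, but other proteins decide how those fibrils are spaced, joined and bound to cells. Lysyl oxidases oxidise lysine side chains of collagen and elastin, which then form covalent crosslinks. Decorin, lumican and biglycan bind collagen fibrils and affect their assembly. Fibronectin is an early scaffold of wounds, made by hepatocytes as a plasma protein and by mesenchymal cells as a tissue protein. Matricellular proteins are secreted into the matrix and act mainly on cell behaviour and on growth factors.

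The livers came from Wistar rats, in 3 groups with 3 libraries each. The normal group received olive oil. The fibrosis group received carbon tetrachloride (CCl4), a hepatotoxic solvent, as 2 mL/kg of a 50% solution in olive oil, given 3 times weekly over 8 weeks. The schisandrin B group received CCl4 throughout the same 8 weeks, and during the last 4 weeks also daily schisandrin B, a lignan of Schisandra fruit. Doses of 25 and 50 mg/kg were used in the study, and it is not stated which of them these libraries received. The labels do not name the animal behind each library, so each SD and p-value reflects the spread among libraries, which may be technical.

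Library totals ran from 10320299 to 16255167 counts. The labelled tissue fits its markers: all 6 hepatocyte markers were detected in every group, and Alb alone took 4.18% to 17.1% of the counts. The labels call all animals male, but the Y-linked Kdm5d and Eif2s3y had 0 counts in the 3 libraries labelled normal. They had 73 to 193 counts in each of the other 6. Ddx3y, also Y-linked, had 6 to 32 counts in all 9 libraries. Whatever lies behind this difference cannot be told apart from treatment in either comparison with the libraries labelled normal. Fibrosis replicate 1 stood apart from its group, with a chi-square per degree of freedom of 98.02 and 116.46 against the other fibrosis libraries, where the other pairs within a group gave 15.14 to 43.7. Results that it decides are given with and without it.

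Levels are CPM, counts relative to the size of the library, scaled by TMM, a method that assumes most genes equal between libraries. A change is the log2 fold change with its SE, and a gene is called, or said to rise or fall, at an edgeR adjusted p under 0.05 over all 14581 tested genes. A floor of 3 counts equals 0.176 to 0.287 CPM, depending on the library. Gene lengths of the rat were not used here, so levels are compared between groups and not between genes.

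**Figure D1:**
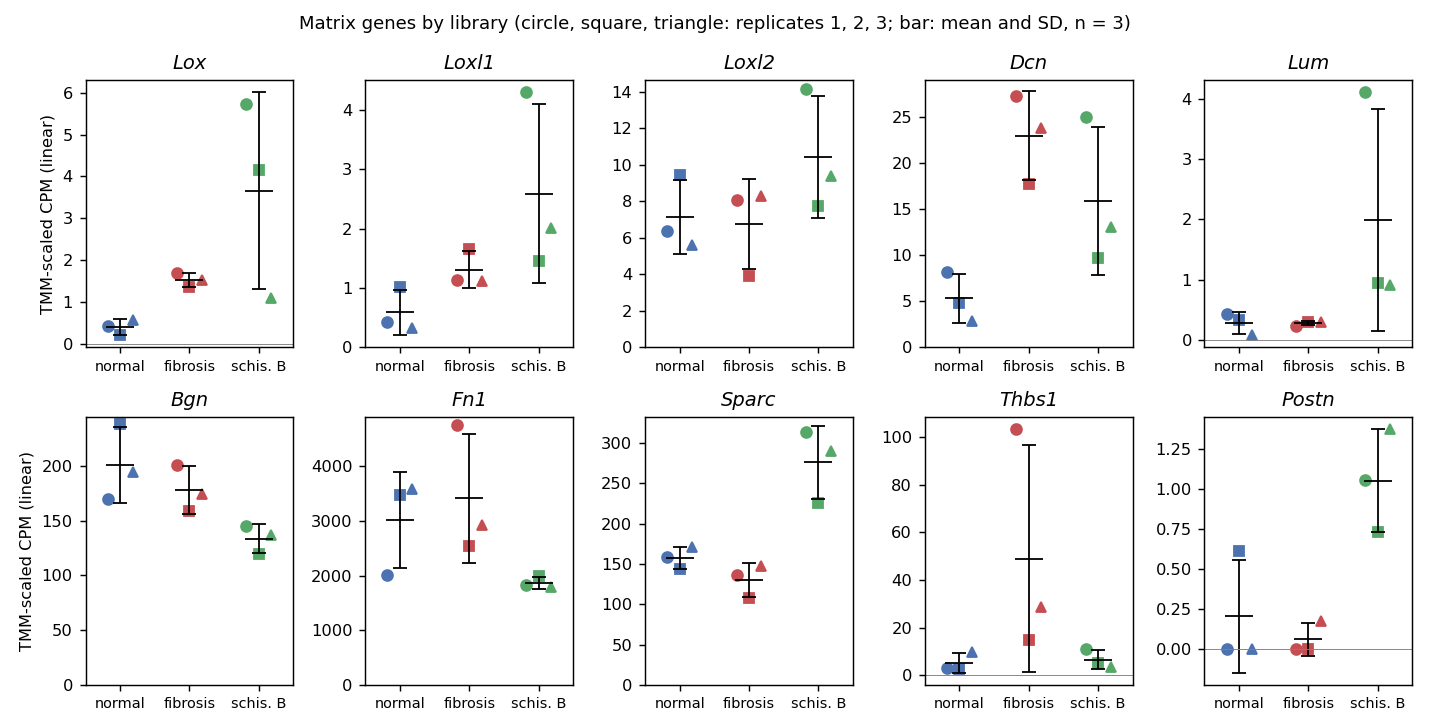
Level of each of the 10 genes in the 9 libraries, in TMM-scaled CPM on linear axes that differ between panels, with symbols for replicates 1 to 3 and bars for the mean and SD (n = 3). Sparc was 225 to 313 CPM in schisandrin B libraries and 107 to 171 CPM in the others, Dcn was highest in fibrosis replicate 1, and Thbs1 reached 103 CPM in that library.

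The genes followed different patterns over the 3 groups. Dcn, Lox and Thbs1 rose in fibrosis against normal libraries, where the Lox call was lost without normal replicate 1 or 2. Sparc and Lum rose, and Fn1 and Thbs1 fell, with schisandrin B against fibrosis, in calls that for Fn1 and Thbs1 were lost without single libraries. Lox, Loxl1, Lum, Dcn and Sparc rose in schisandrin B against normal libraries, in calls that for all but Lox were lost without single libraries. Loxl2 and Bgn were not called in any comparison. Each pair of these comparisons shares a group of libraries.

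Of the 9 tested genes, 3 were called in fibrosis against normal libraries, all higher, where 48.3% of all tested genes were called, 25.4% higher and 22.9% lower. With schisandrin B against fibrosis 4 were called, 2 higher and 2 lower, against 47.3% of all tested genes, 22.5% higher and 24.8% lower. In schisandrin B against normal libraries 5 were called, all higher, against 10.5% of all tested genes, 5.25% higher and 5.25% lower. Without fibrosis replicate 1 the 3 counts over the same 9 genes were 3, 2 and 6. The second was also 2 without schisandrin B replicate 2. The last was 1 without normal replicate 3 or schisandrin B replicate 1, and 2 without normal replicate 1 or 2 or schisandrin B replicate 3. The first was 2 without normal replicate 1. The first 2 shares, 3 of 9 and 4 of 9, are near or below the background, so they are no result about these genes as a group. Lum passed the filter on low counts only through the schisandrin B libraries, where it was high, and Postn did not pass. Lox and Loxl1 passed it only through the CCl4 libraries, where they were high. These counts therefore lend no support to a common direction.

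In fibrosis against normal libraries the groups did not overlap for 4 of the 9 tested genes, all higher, which were Lox, Loxl1, Dcn and Thbs1. Among all tested genes this held for 55.8%, 29% higher and 26.8% lower. Schisandrin B and fibrosis libraries did not overlap for 5 of the 9, with Lum and Sparc higher and Bgn, Fn1 and Thbs1 lower, against 56.8% of all tested genes, 27.8% higher and 29% lower. Schisandrin B and normal libraries did not overlap for 7 of the 9, with Lox, Loxl1, Dcn, Lum and Sparc higher and Bgn and Fn1 lower, against 38.7% of all tested genes, 19.9% higher and 18.8% lower. For Fn1 this last separation held in TMM-scaled CPM but not as a share of all counts. Lum entered both counts with schisandrin B only through its high schisandrin B libraries. Lox and Loxl1 entered both counts against normal libraries only through their high CCl4 libraries. With scaling by library totals the called genes that were higher moved from 52.7% to 74.7%, from 47.6% to 32.6% and from 50.03% to 70.3% in the 3 comparisons.

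**Figure D2:**
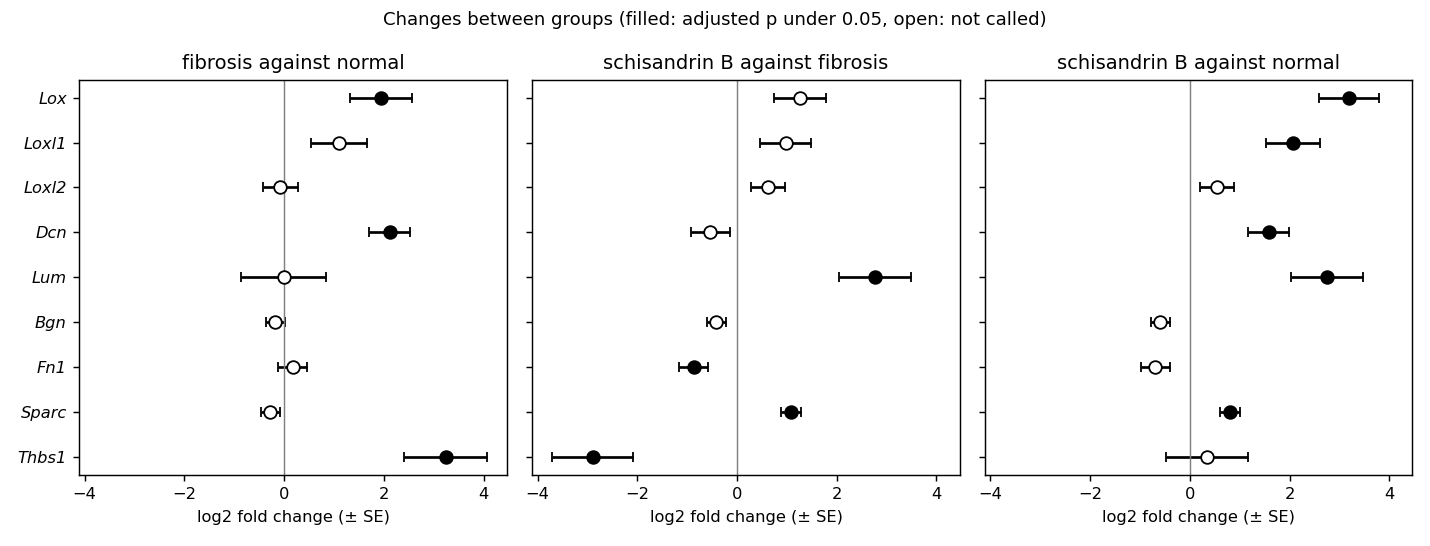
Log2 fold change with its SE for the 9 tested genes in the 3 comparisons, with filled points for genes with an edgeR adjusted p under 0.05. The filled points are Lox, Dcn and Thbs1 on the left, Lum, Fn1, Sparc and Thbs1 in the middle, and Lox, Loxl1, Dcn, Lum and Sparc on the right.

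Of the 3 lysyl oxidases described, Lox had the largest fitted change in both comparisons with normal libraries. Lox, which crosslinks fibrillar collagen and elastin, stood at 0.429, 0.203 and 0.567 CPM in normal replicates 1 to 3, from 3 to 7 counts. It measured 1.70, 1.36 and 1.53 CPM in fibrosis libraries, from 18 to 26 counts. In schisandrin B libraries it measured 5.73, 4.16 and 1.10 CPM, from 60, 57 and 12 counts. Every CCl4 library was above every normal library, while schisandrin B replicate 3 lay below all fibrosis libraries and its group mates lay above them.

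Lox rose by 1.94 ± 0.62 in fibrosis against normal libraries (edgeR adjusted p 0.0233). This call was lost without normal replicate 1 (1.99, adjusted p 0.058), without normal replicate 2 (1.59, adjusted p 0.0905) and with limma voom (adjusted p 0.0627). Lox rose in schisandrin B against normal libraries by 3.19 ± 0.61 (adjusted p 0.0074), and it was called under all 17 alternatives with a threshold of 0.05. Lox passed the filter on low counts only through the CCl4 libraries, where it was high. Its p-values against normal libraries therefore lend no separate support. Against fibrosis, Lox was 1.26 ± 0.52 higher with schisandrin B without a call (adjusted p 0.0671). Without schisandrin B replicate 3 that difference was 1.69 and called (adjusted p 0.00883), and upper-quartile scaling also gave a call (adjusted p 0.0472).

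Loxl1, the lysyl oxidase best known for elastic fibres, had few counts, 4 to 15 in normal, 14 to 22 in fibrosis and 20 to 45 in schisandrin B libraries. Its levels were 0.429, 1.02 and 0.324 CPM in normal libraries and 1.13, 1.66 and 1.12 CPM in fibrosis libraries. With schisandrin B they were 4.30, 1.46 and 2.01 CPM. The normal libraries lay below all others, and schisandrin B replicate 1 was the highest.

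Loxl1 rose in schisandrin B against normal libraries by 2.07 ± 0.55 (edgeR adjusted p 0.0337). That call was lost without normal replicate 1 or 3 or schisandrin B replicate 1 or 3, with adjusted p of 0.0687 to 0.14, and with limma voom (0.0503). The change without schisandrin B replicate 1 was 1.51. In fibrosis against normal libraries Loxl1 was 1.10 ± 0.56 higher without a call (adjusted p 0.126). There it was called without normal replicate 2 (1.76, adjusted p 0.0462) and with library totals (1.51, adjusted p 0.0462). Loxl1 passed the filter on low counts only through the CCl4 libraries, where it was high. Its p-values against normal libraries therefore lend no separate support. Schisandrin B against fibrosis gave 0.98 ± 0.50 (adjusted p 0.133).

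Loxl2, which also acts on basement membrane collagen, was called in no comparison and under no alternative. It measured 6.36, 9.41 and 5.59 CPM in normal, 8.10, 3.94 and 8.28 CPM in fibrosis and 14.1, 7.73 and 9.40 CPM in schisandrin B libraries. The groups overlapped in all 3 comparisons. Its differences were -0.07 ± 0.34 in fibrosis against normal, 0.62 ± 0.34 in schisandrin B against fibrosis and 0.54 ± 0.34 in schisandrin B against normal libraries (edgeR adjusted p 0.875, 0.16 and 0.346).

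Decorin was the one proteoglycan of the 3 described that was called in fibrosis. Dcn, a collagen-binding proteoglycan that also binds TGF-beta, stood at 8.25, 4.81 and 2.91 CPM in normal libraries. It stood at 27.4, 17.8 and 23.8 CPM in fibrosis and at 25.04, 9.70 and 13.1 CPM in schisandrin B libraries. All CCl4 libraries were above all normal libraries, and schisandrin B replicate 1 lay within the fibrosis range.

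Dcn rose by 2.11 ± 0.42 in fibrosis against normal libraries (edgeR adjusted p 0.00178), and it was called under all 18 alternatives with a threshold of 0.05, where the change was 1.82 to 2.56. With schisandrin B against fibrosis the difference was -0.53 ± 0.39 (adjusted p 0.288), and no alternative gave a call. The lowest adjusted p there was 0.0654, with -0.96, without schisandrin B replicate 1. Dcn rose in schisandrin B against normal libraries by 1.58 ± 0.42 (adjusted p 0.0354). That call was lost without normal replicate 2 or 3 or schisandrin B replicate 1 or 3 (adjusted p 0.0693 to 0.122), without a filter on low counts (0.054) and with only the 2 groups compared (0.0545). Leaving out schisandrin B replicate 1 gave 1.10.

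Lumican, another collagen-binding proteoglycan, was near the floor outside the schisandrin B group. Lum had 5, 5 and 1 counts in normal libraries, 3, 4 and 5 in fibrosis libraries, and 43, 13 and 10 in schisandrin B libraries. Its levels were 0.081 to 0.429 CPM in normal and 0.243 to 0.303 CPM in fibrosis libraries. With schisandrin B they were 4.11, 0.948 and 0.913 CPM, so the schisandrin B libraries were above all others and replicate 1 held most of the counts.

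Lum passed the filter on low counts only through the schisandrin B libraries, where it was high. The p-values against the other groups therefore lend no separate support. Lum rose by 2.76 ± 0.72 in schisandrin B against fibrosis (edgeR adjusted p 0.00789). Without schisandrin B replicate 1 the change was 1.75 and still called (adjusted p 0.0486). Pooled over the libraries, 66 counts with schisandrin B and 12 in fibrosis gave a 6.67-fold ratio (exact 95% counting interval 3.57 to 13.6). Such an interval covers counting error only and leaves out the spread between libraries. Against normal libraries Lum rose by 2.75 ± 0.73 (adjusted p 0.0337), a call lost without any single normal library, without schisandrin B replicate 1 (1.69) and with limma voom. Those adjusted p ranged from 0.0701 to 0.155. Fibrosis against normal libraries gave -0.01 ± 0.86 (adjusted p 0.992), with a counting interval of the pooled ratio from 0.401 to 2.48, so smaller differences were not detectable at this depth.

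Biglycan, the third of these proteoglycans and also a signal for innate immune receptors, did not follow Dcn or Lum. Bgn measured 170, 239 and 195 CPM in normal, 201, 159 and 174 CPM in fibrosis, and 145, 119 and 137 CPM in schisandrin B libraries. The schisandrin B libraries lay below all 6 others. The differences were -0.18 ± 0.19 in fibrosis against normal, -0.41 ± 0.19 in schisandrin B against fibrosis and -0.59 ± 0.19 in schisandrin B against normal libraries, none called (edgeR adjusted p 0.459, 0.0908 and 0.068).

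Library totals gave a call in schisandrin B against fibrosis (-0.68, adjusted p 0.0128). That scaling also lowered the median gene by 0.27, and which scaling holds was not tested. Against normal libraries Bgn was called lower with DESeq2 (adjusted p 0.02), with only the 2 groups compared (0.0246) and without fibrosis replicate 1 (0.0289).

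In TMM-scaled CPM, fibronectin was lower in every schisandrin B library than in any other library. Fn1 took 0.171% to 0.504% of all counts. By this share normal replicate 1 (0.175%) lay below schisandrin B replicates 1 and 2 (0.185% and 0.19%), so these groups overlapped. Fn1 measured 2011, 3476 and 3582 CPM in normal libraries and 4751, 2549 and 2931 CPM in fibrosis libraries. With schisandrin B it measured 1822, 1997 and 1790.4 CPM, the narrowest spread of the 3 groups. Fibrosis replicate 1 held the highest level, and normal replicate 1 was the library closest to the schisandrin B group.

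Fn1 fell by 0.87 ± 0.29 on the log2 scale in schisandrin B against fibrosis (edgeR adjusted p 0.0278). The call was lost without fibrosis replicate 1, where the change was -0.56 (adjusted p 0.0888), and without any single schisandrin B library (adjusted p 0.064 to 0.0962). Fibrosis against normal libraries gave 0.17 ± 0.29 (adjusted p 0.641), and without fibrosis replicate 1 the sign turned, to -0.14. Schisandrin B against normal libraries gave -0.69 ± 0.29 (adjusted p 0.149), called only with the 2 groups compared (adjusted p 0.0367). Hepatocytes, a main source of fibronectin, had their 6 markers at a summed 217628 to 255737 CPM in normal, 65547 to 105410 CPM in fibrosis and 179069 to 201075 CPM in schisandrin B libraries. In bulk tissue, fewer cells of a type and less RNA per cell cannot be told apart, and the part of hepatocyte content in the Fn1 values was not tested.

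Among the 10 genes, Sparc had the lowest adjusted p between the CCl4 groups. This collagen-binding protein, also called osteonectin, measured 158, 144 and 171 CPM in normal libraries and 136, 107 and 148 CPM in fibrosis libraries. With schisandrin B it measured 313, 225 and 290 CPM. All schisandrin B libraries were above all 6 others, and normal and fibrosis libraries overlapped.

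Sparc rose by 1.08 ± 0.20 in schisandrin B against fibrosis (edgeR adjusted p 0.00097), and it was called under all 18 alternatives with a threshold of 0.05, with changes of 0.81 to 1.22. Against normal libraries it rose by 0.81 ± 0.20 (adjusted p 0.0244). This call was lost without any single normal library and without schisandrin B replicate 1 or 3, with adjusted p of 0.0661 to 0.0917 and changes of 0.71 to 0.87. Fibrosis against normal libraries gave -0.28 ± 0.20 without a call (adjusted p 0.264), and with library totals the sign turned, to 0.17.

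Thrombospondin-1, which can activate latent TGF-beta, varied widely between fibrosis libraries. Thbs1 stood at 2.92, 2.71 and 9.88 CPM in normal libraries. In fibrosis libraries it reached 103, 14.8 and 28.5 CPM, a 6.99-fold range between replicates. With schisandrin B it was 10.9, 5.18 and 3.65 CPM. Every fibrosis library was above all 6 others, and normal and schisandrin B libraries overlapped.

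Thbs1 rose by 3.24 ± 0.83 in fibrosis against normal libraries (edgeR adjusted p 0.0111). Without fibrosis replicate 1 it rose by 2.08 (adjusted p 0.0394), and without a filter on low counts the adjusted p was 0.051. It fell in schisandrin B against fibrosis by 2.90 ± 0.82 on the log2 scale (adjusted p 0.0177). Without fibrosis replicate 1 this was -1.73 and no longer called (adjusted p 0.0707), nor was it without schisandrin B replicate 2 or 3 (0.07 and 0.0561) or without a filter (0.0712). Schisandrin B against normal libraries gave 0.34 ± 0.83 (adjusted p 0.84). Thbs1 is stored in platelets as well, and the 6 platelet markers summed to 26.5 to 30.3 CPM in normal, 15.97 to 26.5 CPM in fibrosis and 19.4 to 30.3 CPM in schisandrin B libraries. Of these markers 2 were tested. Pf4 rose by 1.10 in fibrosis and by 1.42 in schisandrin B against normal libraries (edgeR adjusted p 0.0463 and 0.0495). Both calls were lost without any single normal library, fibrosis replicate 2 or schisandrin B replicate 1 or 2. The first was also lost without fibrosis replicate 3. The other tested marker was called in neither comparison, and the median of the 2 changes was 0.26 and 0.52, below Pf4. Ppbp, Gp9 and Gp1bb were at 0 in all schisandrin B libraries. The part of platelets in the Thbs1 values was not tested.

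Periostin, a matricellular protein of wounds, was at or near the floor. Postn had 0, 9 and 0 counts in normal libraries, 0, 0 and 3 in fibrosis libraries and 11, 10 and 15 in schisandrin B libraries. Its levels with schisandrin B were 1.05, 0.729 and 1.37 CPM, above the 0.61 CPM of normal replicate 2, the highest of the others. Pooled over libraries, schisandrin B against fibrosis gave a 14.5-fold ratio (95% counting interval 4.60 to 73.8), and schisandrin B against normal libraries gave 4.41 (2.09 to 10.4). These intervals cover counting error only. Without the filter on low counts edgeR called Postn in schisandrin B against fibrosis (adjusted p 0.0196), but not against normal libraries (0.239). It also passed the filter in 7 fits that left out a single library, but only through the schisandrin B libraries, where it was high. The edgeR adjusted p against fibrosis in these fits was 0.00759 to 0.0593, which lends no separate support. That p was above the threshold without fibrosis replicate 2, and without normal replicate 2 Postn was also called against normal libraries (0.0357).

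Of the 3 schisandrin B libraries, replicate 1 was the highest for 8 of the 10 genes, all but Fn1 and Postn. Over all tested genes it was the highest for 35.8%. No fibrosis or normal library was the highest of its group for more than 5 of the 10. The summed CPM of several cell marker lists was also highest in replicate 1 of the schisandrin B libraries. Replicates 1 to 3 gave 55.8, 45.9 and 47.6 for myofibroblasts and portal fibroblasts, 26.6, 12.0 and 19.1 for cholangiocytes and 13.7, 1.02 and 5.57 for mesothelium. Smooth muscle, endothelium and macrophage sums were highest there as well. The 3 fibrillar collagens together were 539, 389 and 399.5 CPM. Markers of stellate cells, the main makers of scar matrix, summed to 157, 139.9 and 160 CPM in the same libraries, 125 to 167 CPM in normal and 132 to 204 CPM in fibrosis libraries. The part of these cell types in the high values of replicate 1 was not tested.

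The 8 myofibroblast and portal fibroblast markers summed to 47.9 to 60.6 CPM in normal, 60.1 to 136 CPM in fibrosis and 45.9 to 55.8 CPM in schisandrin B libraries, with fibrosis replicate 2 inside the normal range. Of 6 tested, 3 rose and 0 fell in fibrosis against normal libraries, and 0 rose and 4 fell in schisandrin B against fibrosis, where 25.4% of all tested genes rose and 24.8% fell, respectively. Acta2, the actin of contractile scar-forming cells, changed by 1.54 and -1.86 in these comparisons (edgeR adjusted p 0.00196 and 0.000718). The part of these cells in the levels of the 10 genes was not tested.

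Each gene was also set against fibrillar collagen within its own library, as counts per 1000 counts of Col1a1, Col1a2 and Col3a1 together. This ratio does not depend on scaling between libraries, and it was not tested. The 3 collagens together were 175 to 293 CPM in normal, 181 to 346 CPM in fibrosis and 389 to 539 CPM in schisandrin B libraries. Col1a1, Col1a2 and Col3a1 rose by 1.55, 1.07 and 0.72 in schisandrin B against fibrosis (edgeR adjusted p 0.015, 0.0411 and 0.0462). In fibrosis against normal libraries none was called (0.506, 0.739 and 0.718). In schisandrin B against normal libraries only Col1a1 was called (0.0235, 0.068 and 0.0687). These fits were not repeated without single libraries, and Col1a1 was 64.4, 25.2 and 27.6 CPM in schisandrin B replicates 1 to 3. A lower ratio with schisandrin B thus carries the higher collagen level as well as the level of the gene. The ratios showed Dcn and Thbs1 high in fibrosis, Bgn and Fn1 low with schisandrin B, and Sparc near level.

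Dcn stood at 47.0, 16.4 and 13.4 per 1000 in normal libraries, 118, 98.2 and 68.9 in fibrosis and 46.5, 24.9 and 32.7 with schisandrin B. On this scale every fibrosis library was above all others, and schisandrin B and normal libraries overlapped. Lox ran from 0.693 to 2.60 in normal, 4.41 to 7.53 in fibrosis and 2.74 to 10.7 in schisandrin B libraries, so the CCl4 groups overlapped and both lay above normal.

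Bgn measured 892 ± 77.7 in normal, 750 ± 214 in fibrosis and 306 ± 37.01 in schisandrin B libraries (SD, n = 3). Fn1 measured 13254 ± 2778, 14372 ± 6053 and 4331 ± 884 in the same order. For both genes the schisandrin B libraries lay below all others, as they did in CPM. Sparc was 490.1 to 901 in normal, 427 to 592 in fibrosis and 578 to 725 in schisandrin B libraries, and the groups overlapped. Its higher CPM with schisandrin B went with a higher collagen CPM in the same libraries. Thbs1 reached 447, 81.5 and 82.3 in fibrosis libraries, against 9.23 to 45.4 in normal and 9.14 to 20.2 in schisandrin B libraries.

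**Figure D3:**
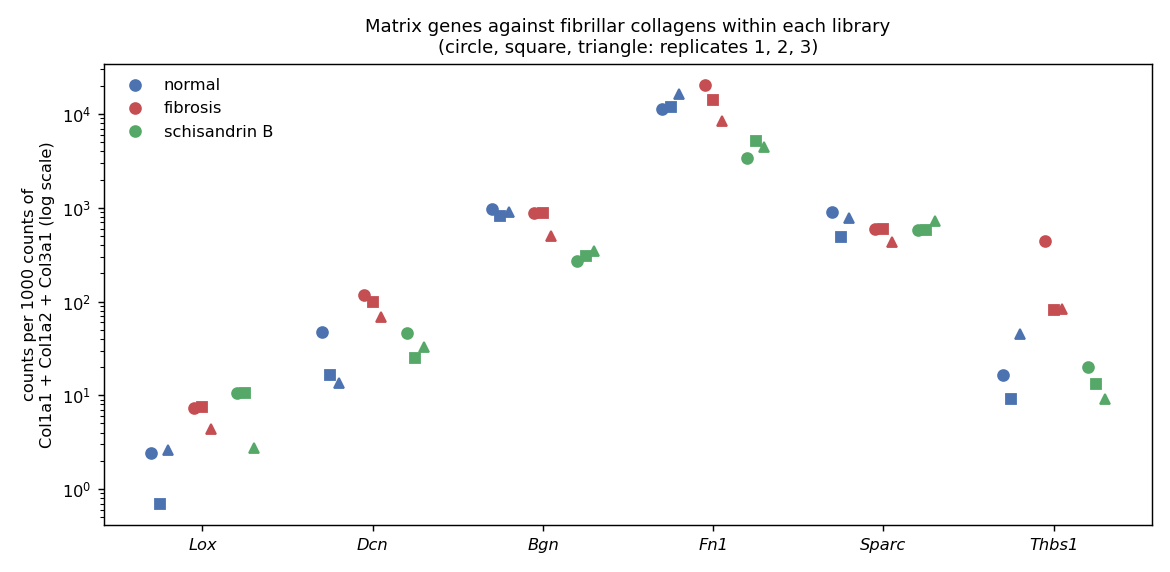
Counts of 6 genes per 1000 counts of Col1a1, Col1a2 and Col3a1 in each library, on a log axis, with colours for groups and symbols for replicates. Bgn and Fn1 are lowest in the 3 schisandrin B libraries (269 to 343 and 3381 to 5130), Dcn and Thbs1 are highest in fibrosis libraries, and the groups overlap for Sparc.

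Other genes of the matrix were taken from 4 fixed lists of 62 genes, of which 56 were in the table and 44 were tested. In fibrosis against normal libraries 10 rose and 9 fell, in schisandrin B against fibrosis 11 rose and 9 fell, and in schisandrin B against normal libraries 2 rose and 2 fell. Among all tested genes, 25.4% rose and 22.9% fell, 22.5% rose and 24.8% fell, and 5.25% rose and 5.25% fell, in the same order. The counts of the 4 lists together were near or below these shares, so they are no result about the lists. The counts of single lists below were not tested against these shares. The median change of all tested genes was 0.03, -0.03 and 0.0038 in these comparisons.

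Collagen crosslinking and modifying enzymes were mixed. Of 11 tested, 3 rose and 1 fell in fibrosis against normal libraries (median 0.22), and 2 rose and 4 fell in schisandrin B against fibrosis (median -0.56). P4ha2, a collagen prolyl hydroxylase subunit, stood at 24.4 ± 2.90 CPM in normal, 70.3 ± 16.4 in fibrosis and 37.8 ± 8.22 in schisandrin B libraries (SD, n = 3). It rose by 1.53 in fibrosis (edgeR adjusted p 0.000202) and fell by 0.90 on the log2 scale with schisandrin B (0.00549). Plod2, whose hydroxylysines favour stable crosslinks, rose by 2.13 in fibrosis (0.00186) and by 1.54 in schisandrin B against normal libraries (0.0491). The latter call was lost without any single normal or schisandrin B library or fibrosis replicate 3 (adjusted p 0.0573 to 0.151). Plod2 passed the filter on low counts only through the CCl4 libraries, where it was high, so its p-values lend no separate support.

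Tgm2 and Loxl4 also make or prepare crosslinks. Tgm2, a transglutaminase that joins proteins through glutamine and lysine, stood at 189 ± 28.9 CPM in normal, 97.6 ± 37.5 in fibrosis and 205 ± 26.0 in schisandrin B libraries (SD, n = 3). It fell by 0.95 on the log2 scale in fibrosis against normal libraries (edgeR adjusted p 0.00959) and rose by 1.07 with schisandrin B against fibrosis (0.00527). Loxl4, a lysyl oxidase like Loxl2, stood at 98.3 ± 14.3 CPM in normal, 93.8 ± 45.9 in fibrosis and 39.8 ± 5.35 in schisandrin B libraries (SD, n = 3). It fell by 1.24 on the log2 scale against fibrosis (adjusted p 0.00453) and by 1.30 against normal libraries (0.0164). The latter call was lost without normal replicate 2 or 3 or schisandrin B replicate 1 or 3 (adjusted p 0.0532 to 0.0753).

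Of 4 other proteoglycans tested, 1 rose and 2 fell in fibrosis against normal libraries (median -0.37), and 1 rose and 1 fell with schisandrin B against fibrosis (median 0.04). Prelp, a leucine-rich relative of decorin, fell by 0.65 on the log2 scale in fibrosis (edgeR adjusted p 0.0079), opposite to Dcn. Agrn, a heparan sulfate proteoglycan, fell by 0.72 (0.0156) and then rose by 1.19 with schisandrin B (0.000945). The large proteoglycan Vcan measured 10.2, 1.36 and 1.41 CPM in fibrosis replicates 1 to 3. It rose by 2.30 in fibrosis (0.0328) and fell by 2.59 on the log2 scale with schisandrin B (0.0234), and both calls rested on fibrosis replicate 1. Without that library the differences were 0.69 and -0.98, neither called (0.309 and 0.163). The first call was also lost without any single normal library, and the second without schisandrin B replicate 2 or 3. The Agrn call in fibrosis was lost without normal replicate 3 (0.055).

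Of 14 other matricellular and adhesive proteins, 3 rose and 4 fell in fibrosis (median -0.08), and 5 rose and 3 fell with schisandrin B against fibrosis (median 0.08). Smoc1, a calcium-binding relative of Sparc, fell from 181 ± 26.9 CPM in normal to 18.2 ± 2.27 in fibrosis libraries and stood at 119 ± 9.62 with schisandrin B (SD, n = 3). Its changes were -3.31 ± 0.19 and 2.71 ± 0.19 (edgeR adjusted p 8.54e-07 and 4.49e-06). Thbs2, a paralog of Thbs1, rose by 1.37 with schisandrin B against fibrosis (0.00579), where Thbs1 fell. Cyr61, a matricellular protein of the CCN family, fell by 1.68 on the log2 scale there (0.00873). Spp1, osteopontin, rose by 2.23 in schisandrin B against normal libraries (0.0356), from a level of 0.355 CPM. That call was lost without normal replicate 2 or 3 or schisandrin B replicate 1 or 3 (0.116 to 0.127), and the change was 3.08 without normal replicate 1. Spp1 passed the filter on low counts only through the CCl4 libraries, where it was high, so its p-value lends no separate support. In fibrosis against normal libraries Tgfbi fell by 1.30 and the plasma adhesion protein Vtn fell by 0.96 on the log2 scale (0.000444 and 0.00321).

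**Figure D4:**
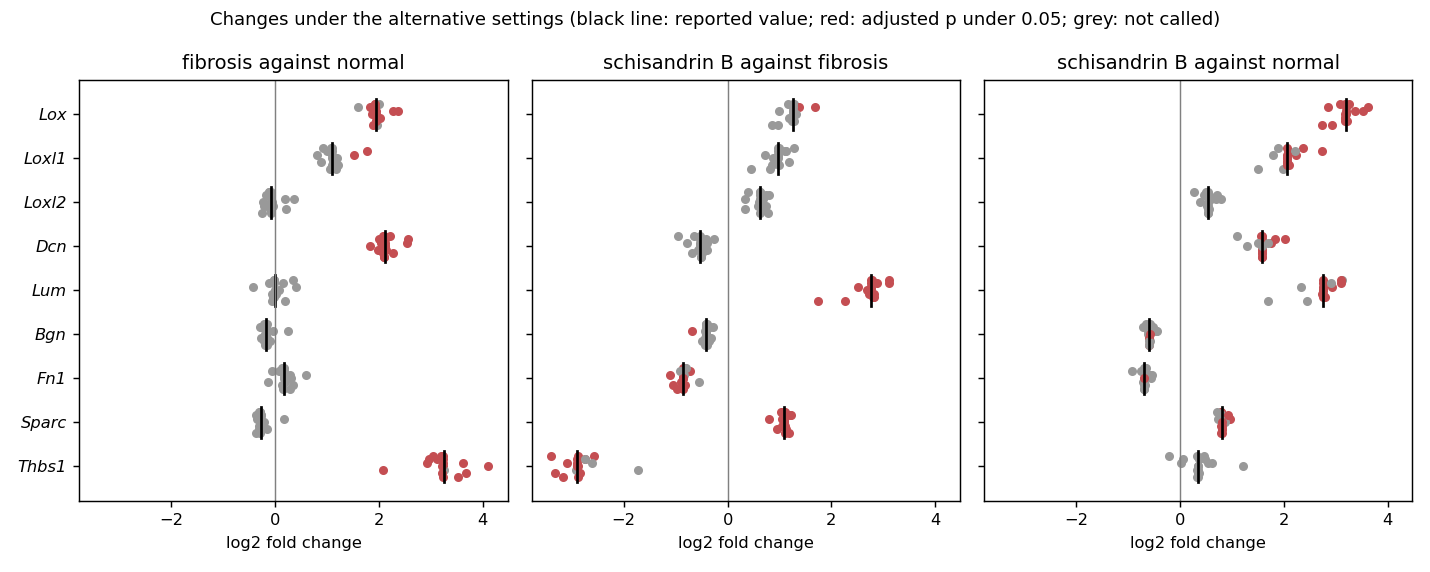
Log2 fold change of the 9 tested genes under each alternative setting, with a black line for the reported value and red points for an adjusted p under 0.05. Dcn in fibrosis against normal, Sparc and Lum in schisandrin B against fibrosis, and Lox in schisandrin B against normal libraries have red points only.

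The genes whose profile over the 9 libraries was most like each of the 10 were found by the root mean square difference of log2 CPM, after each profile was centred on its mean. This difference also depends on a gene's own root mean square about its mean, so it does not rank how well the genes were matched. That spread was 0.29 for Bgn, 0.473 for Fn1, 0.482 for Loxl2 and 0.489 for Sparc. It was 0.909 for Loxl1, 1.04 for Dcn and 1.15 to 1.60 for Lum, Lox, Postn and Thbs1. Bgn, Fn1 and Sparc had the nearest profiles, at 0.113 to 0.173. Those were Sec14l1, Plekhb2 and Wdfy1 for Bgn, Reep4, RGD1561771 and Ssh2 for Fn1, and Tex9, Col5a1 and Cyb561d2 for Sparc. Col5a1, a collagen chain that regulates fibril diameter, stood at 22.1, 18.3 and 34.1 CPM on average in normal, fibrosis and schisandrin B libraries.

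For Loxl1 the nearest were the secreted protease Htra3 (0.242), the complement component C7 (0.345) and LOC100360060 (0.383). For Loxl2 they were Ccdc102a, Sipa1l2 and Col4a3bp (0.183 to 0.214), and for Dcn they were Pitpnm3, Emp1 and Thoc1 (0.37 to 0.381). Thbs1 had no profile nearer than 0.503 (LOC500476), Lum none nearer than 0.486 (LOC502176), Postn none nearer than 0.507 (Zfp292) and Lox none nearer than 0.615 (Pmepa1). Among the 10 genes themselves the nearest pairs were Bgn with Fn1 (0.292) and Loxl2 with Sparc (0.365), while Lox and Loxl1 were 0.853 apart. The distance of Bgn to Fn1 was no smaller than the spread of Bgn about its own mean (0.29). Lox and Loxl1 had larger spreads (1.23 and 0.909), so these distances do not show which pair is more alike.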

How the data were processed

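Rat liver RNA of 9 libraries was sequenced on the Ion Proton platform, per the labels' protocols. The deposited table gives unnormalized counts, whole numbers for each gene, with 1 column per library. For the aligner and counting tool, names and versions were not given in the sources used here. GRCm38, a mouse build, is named in the submitters' processing notes, while the strain is given as Wistar rat and the symbols are those of rat genes, so no coordinates or reference sequences are printed. Libraries were grouped by source name. Replicate numbers follow accession order and pair nothing.

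The function filterByExpr (minimum count 10) kept 14581 of 37203 genes. Counts were scaled by TMM and fitted in R 4.3.3 with edgeR 4.0.16 (quasi-likelihood, robust dispersions, all 9 libraries, 1 mean per group), with Benjamini-Hochberg adjustment over all tested genes. DESeq2 1.42.0 and limma 3.58.1 voom were alternatives. Profiles used a prior count of 2. The script was tested on simulated data. Figures used Python 3.11.15 and matplotlib 3.10.9. The genes described, the lists and the tests were chosen with earlier results of these data known. Named are all 10 genes, up to 3 called genes per list and comparison with the lowest adjusted p, and 3 nearest profiles per gene. Elastic fibre genes stand in the closing section. Marker lists covered stellate cells, myofibroblasts, smooth muscle, endothelium, macrophages, platelets, mesothelium, cholangiocytes and hepatocytes.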

Additional observations from a re-analysis of the deposited data

How the results depend on the processing

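The alternatives gave 503 values for 27 gene results: 439 kept direction and side of the threshold, 41 lost a call, 9 gained one and 14 changed sign. The sign changed only for differences that were not called, and the cause was not tested. In fibrosis against normal libraries, library totals gave 0.36 for Loxl2, 0.41 for Lum, 0.25 for Bgn and 0.17 for Sparc. That scaling moved the median gene by 0.43, -0.27 and 0.16 in the 3 comparisons. Relative to this shift Loxl2, Lum, Bgn and Sparc stood at -0.07, -0.03, -0.19 and -0.26. Taking off the shift gives back values near those of TMM by construction, so it cannot show which scaling holds. Upper-quartile scaling moved the median gene by -0.11, 0.13 and 0.02. Lum gave 0.012 without a filter and 0.18 with limma voom. Leaving out single libraries gave -0.25 to 0.20 for Loxl2, -0.43 to 0.35 for Lum and -0.14 to 0.35 for Fn1 in fibrosis against normal, and -0.20 to 1.21 for Thbs1 in schisandrin B against normal libraries.

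With an adjusted p under 0.01, the genes called among the 10 were 1, 2 and 1 in the 3 comparisons, in place of 3, 4 and 5. In schisandrin B against normal libraries they were 2 with a mean of at least 5 CPM, where fewer genes were tested, 3 with limma voom, and 1 to 6 with single libraries left out. The calls over all genes there were 1531, 547 under 0.01, 2951 with only the 2 groups compared, and 702 to 2814 with single libraries left out, highest without fibrosis replicate 1 and below 1531 without each normal or schisandrin B library. Without a library its group keeps fewer samples, and the fit pools the spread. With single libraries left out, 2 to 3 of the 10 genes were called in fibrosis against normal and 3 to 5 in schisandrin B against fibrosis. The counts over 10 genes include Postn where it then passed the filter. As an alternative chosen after seeing the data, 31 results of other matrix and marker genes were refitted without single libraries: of 279 values, 44 lost the call and 0 changed sign. No paired analysis was possible because the labels give no replicate numbers. Lum, Postn, Lox and Loxl1 rest on 0 to 60 counts per library.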

Other observations

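Elastic fibre and microfibril genes were also followed, as a list of 17 with 15 tested. In fibrosis against normal libraries 3 rose and 2 fell (median 0.09), and in schisandrin B against fibrosis 3 rose and 1 fell (median 0.22). With schisandrin B against normal libraries edgeR called 0 of them. Among all tested genes, 25.4% rose and 22.9% fell, 22.5% rose and 24.8% fell, and 10.5% were called, in the same order of comparisons. Eln, the elastin that lysyl oxidases crosslink, stood at 7.07 ± 3.69 CPM in normal, 3.97 ± 0.771 in fibrosis and 17.4 ± 11.9 in schisandrin B libraries (SD, n = 3), and it rose by 2.12 ± 0.51 with schisandrin B against fibrosis (edgeR adjusted p 0.00581), or by 1.45 without schisandrin B replicate 1 (0.0183). Ltbp1, which holds latent TGF-beta in the matrix, stood at 11.4 ± 1.28 CPM in normal, 22.1 ± 2.83 in fibrosis and 11.5 ± 2.26 in schisandrin B libraries. It rose by 0.96 in fibrosis against normal libraries (adjusted p 0.00206) and fell by 0.95 on the log2 scale with schisandrin B (0.0023). Its relative Ltbp4 went the other way, at -0.87 and 0.64 (0.00406 and 0.0209), the second call lost without fibrosis replicate 2 or schisandrin B replicate 1 (0.0753 and 0.0727). Fbln1, a fibulin of elastic fibres and basement membranes, rose by 1.41 in fibrosis against normal libraries (0.0073).

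Markers of further cell types gave these values. The 8 endothelial markers summed to 427 to 544 CPM in normal, 306 to 419 CPM in fibrosis and 370 to 393 CPM in schisandrin B libraries. The 8 macrophage markers summed to 1200.2 to 1858 CPM, 711 to 1431 CPM and 636 to 936 CPM in the same order, the 5 smooth muscle markers to 20.7 to 31.3, 18.1 to 25.1 and 18.3 to 26.6 CPM, and the 4 cholangiocyte markers to 19.0 to 24.2, 50.2 to 62.2 and 12.0 to 26.6 CPM. The 4 mesothelial markers summed to 0.972 to 9.69, 8.26 to 12.8 and 1.02 to 13.7 CPM.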
